A study of Mus musculus with 6 samples.

Results

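The heat shock proteins and J-domain chaperones of the mouse, the main protein-folding machinery of the cell, were followed in kidney glomeruli of young and aged animals. They were 70 of the 52636 genes in each library's count table. They were chosen by symbol and a minimum count: protein-coding genes whose GENCODE M21 symbol is Hspa, Hspb, Dnaja, Dnajb, Dnajc or Hsf followed by a number, or starts with Hsp90, Hsph1, Hspd1 or Hspe1, and that held at least 10 counts summed over all libraries. Of 78 genes with such a symbol, 8 held fewer: Dnajb7, Dnajb8, Dnajc25, Dnajc5g and Hspb3 had 0 counts, Hsf3 had 1, Dnajc5b had 4 and Hsf5 had 9. Grouped by symbol, the 70 comprised 13 HSP70 genes, 1 HSP110 gene, 3 HSP90 genes, 7 small heat shock protein genes, 2 chaperonin genes, 40 J-domain genes (4 Dnaja, 11 Dnajb and 25 Dnajc) and 4 genes named for heat shock factors. A family here is one of symbols, and the protein of a member can be of another kind.

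The study compared whole glomeruli, the knots of capillaries in which blood is filtered, from young and aged mice, with 3 libraries of each age and no treatment in either. Per the labels' protocols, the animals were perfused with magnetic beads, the kidneys were minced and digested with enzymes at 37 °C, and the bead-holding glomeruli were drawn out with a magnet and lysed for stranded mRNA sequencing. Strain, genotype, sex and the ages in weeks are not given in the sources used here, nor is whether each library came from 1 animal. The p-values therefore measure the spread between these libraries, which may be partly technical.

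Chaperones bind unfolded stretches of other proteins. HSP70 proteins hold a client in cycles driven by ATP, J-domain proteins bring the client and trigger the cycle, and exchange factors such as HSP110 reset it. HSP90 completes the folding of signalling proteins, small heat shock proteins hold unfolding ones, and the HSP60 and HSP10 chaperonin encloses clients in mitochondria. The transcription factor HSF1 drives the inducible members after heat or other protein stress, and the unfolded protein response does so for those of the endoplasmic reticulum (ER). Podocytes, the long-lived epithelial cells of the glomerular filter, rest on an actin skeleton that small heat shock proteins are known to bind.

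The tables held 21162919 to 26791412 counts per library. The 70 genes took 0.604% to 0.617% of them in young and 0.633% to 0.656% in aged libraries. Values below are CPM, read counts scaled to library size after TMM normalisation. All 12 podocyte markers were lower in aged libraries, and their summed level was 33261 to 37705 CPM in young and 12794 to 16970 CPM in aged libraries. Arteriolar smooth muscle markers were lower for 7 of 9 tested (1982 to 3201 CPM in young, 1358 to 1506 CPM in aged), and endothelial markers for 8 of 12, with 2 higher (13338 to 14638 and 11856 to 12822 CPM). By contrast, 14 of 14 proximal tubule markers were higher (2550 to 4391 CPM in young, 7397 to 10341 CPM in aged), as were 10 of 10 distal nephron markers (1008 to 2197 and 4290 to 4539 CPM) and 11 of 12 macrophage and antigen presentation markers (887 to 995 and 4264 to 6730 CPM). Parietal epithelial markers were higher for 6 of 7, with 1 lower (162 to 167 and 326 to 390 CPM), and mesangial markers for 5 of 11 tested, with 3 lower (4556 to 5104 and 5441 to 5632 CPM). Lymphocyte markers were lower for 6 of 11, with 1 higher (35.0 to 41.8 and 17.1 to 28.2 CPM), and red cell markers for 5 of 5 (223 to 505 and 86.7 to 105 CPM). No marker was at 0 in all libraries. These shifts moved with age in the same libraries as every difference described below, and their part in those differences was not tested. In whole glomeruli, fewer cells of a type and less RNA per cell cannot be told apart.

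Summed over all the chaperone genes, expression was slightly higher in aged libraries. The sum was 6039 to 6190 CPM in young and 6257 to 6618 CPM in aged libraries, with no overlap. The 3 genes Hsp90ab1, Hsp90b1 and Hspa5 made up 37.0% to 40.5% of it in young and 43.0% to 45.7% in aged libraries. Without these 3, the sum of the other genes was lower in every aged library than in every young one. Of the 69 genes tested (Hspb9, at no more than 0.188 CPM in any library, was too low), 15 rose and 9 fell in aged glomeruli at an edgeR adjusted p under 0.05. That is 34.8% of them, where 40.1% of all 15721 genes tested passed. Of the 69, 21.7% rose, beside 23.7% of all genes, and 13% fell, beside 16.3% of all genes. Young and aged libraries did not overlap for 33 of the 69 (47.8%), beside 52.6% of all genes. The log2 fold change was positive for 30 of the 69 and negative for 39. Its median over the 69 was -0.06, and that of all genes was 0.01. Neither the share of changed genes nor the median therefore sets the chaperones apart from the rest of the transcriptome. Fitted changes of at least 2-fold were seen in 5 of the genes that rose and 1 of those that fell. With a score of the proximal tubule markers in the edgeR model, 0 of the 69 passed and 4 had an unadjusted p under 0.05, and over the whole transcriptome 31 genes were higher and 8 lower. Age accounted for 93.1% of the variance of that score, so in this model age and tubule RNA cannot be told apart.

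**Figure D1:**
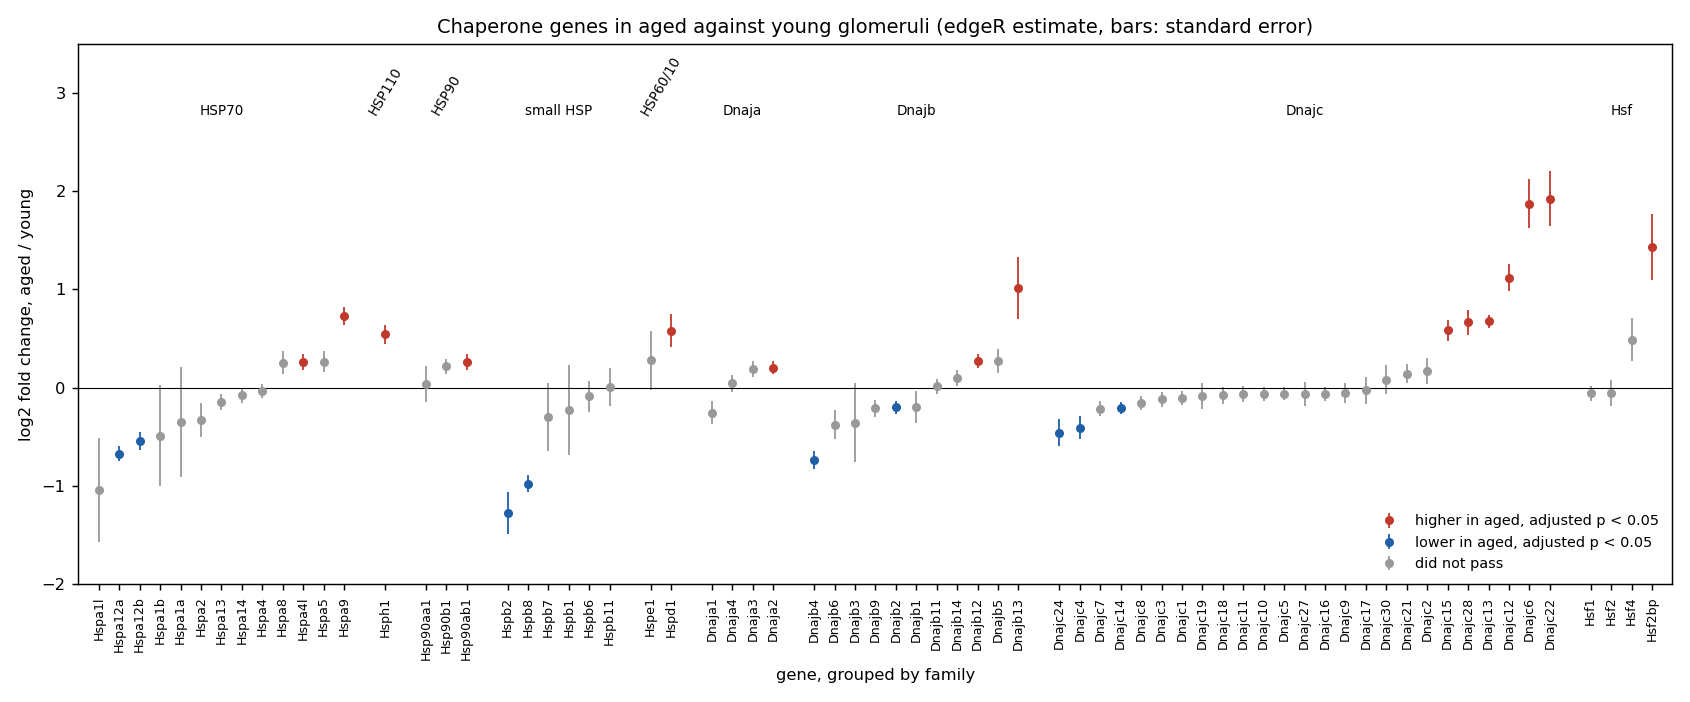
Log2 fold change of aged over young (vertical axis) for each of the 69 tested genes (horizontal axis, ordered within families); points are edgeR estimates from 3 libraries per age and bars are standard errors. Coloured points passed an adjusted p of 0.05: 15 rose (red) and 9 fell (blue), the falls reaching -1.28 at Hspb2 and the rises 1.92 at Dnajc22, while wide bars mark Hspa1l, Hspa1a, Hspa1b and Hspb1.

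Levels between genes were compared per kilobase of exon. Hsp90ab1, the constitutive cytosolic HSP90, was highest in young glomeruli at 336 ± 15.5 CPM per kilobase. Next came the ER-resident HSP90 Hsp90b1 at 175 ± 10.9, the ER-resident HSP70 Hspa5 at 159.9 ± 20.8 and the small heat shock protein Hspb8 at 91.4 ± 8.70 CPM per kilobase (SD, n = 3). The spreads of Hsp90b1 and Hspa5 overlapped, so their order is not settled. Hspa8, the constitutive cytosolic HSP70, stood at only 4.55 ± 0.482 CPM per kilobase.

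Much of the sequence of Hspa8 also occurs in other genes. For each of the 70 genes, the longest protein-coding transcript was divided into windows of 50 bases, and windows found in another gene's transcripts with at most 2 mismatches were counted. This held for 83.6% of the windows of Hspa8, most of them in pseudogenes, and for over 50% of the windows in 10 of the 70 genes. The others were Hspa1b (76.0%), Dnajc17 (75.5%), Hspa1a (75.3%), Hspe1 (75.2%), Hspa1l (71.8%), Hspd1 (70.7%), Hsp90aa1 (68.3%), Hspb1 (66.1%) and Dnaja4 (51.9%). Their levels in young glomeruli ran from 0.364 to 19.4 CPM per kilobase. How reads that match several places were counted is not given in the sources used here, so the levels and changes of these 10 genes are uncertain. By contrast, 43 genes had at most 5% of windows in common with another gene, among them Hspb8, Hspa5 and Hsph1, and 18 of the 24 called genes were of this kind.

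**Figure D2:**
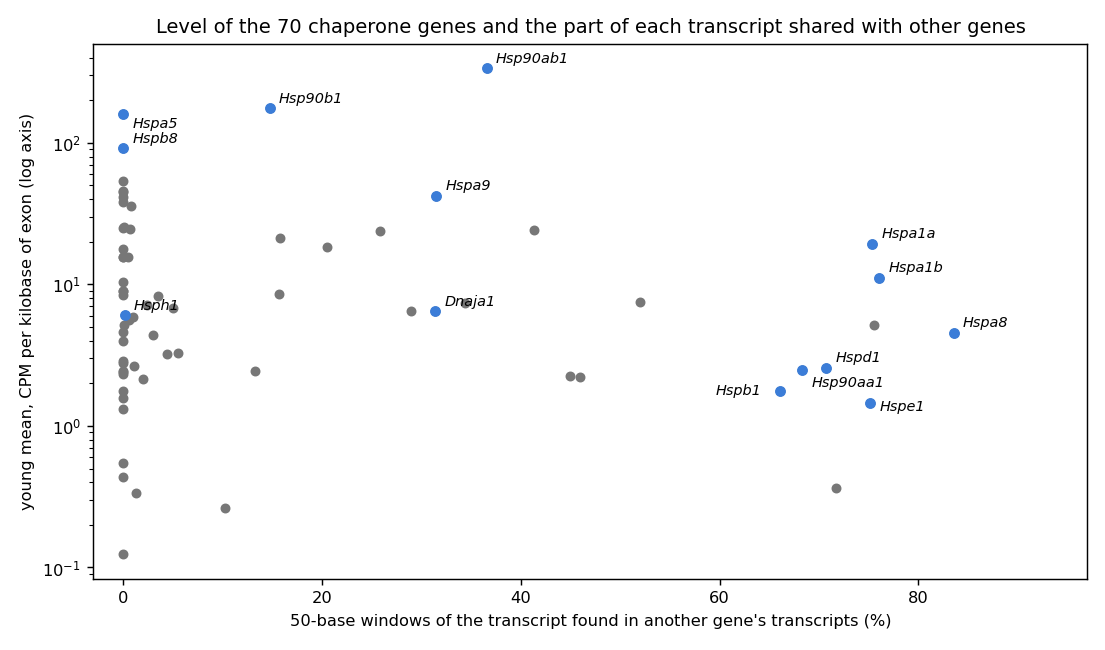
Mean level of the 70 genes in young glomeruli (vertical axis, CPM per kilobase of exon, log axis) against the percentage of 50-base windows of the transcript found in another gene (horizontal axis); each point is 1 gene, and blue points are named. The highest levels, Hsp90ab1, Hsp90b1, Hspa5 and Hspb8, lie at 36.6% or less, and the 10 genes above 50% all lie at or under 19.4 CPM per kilobase.

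Counts by family, here and below, stand beside 23.7% of all genes tested that rose and 16.3% that fell. Among the 13 HSP70 genes, 2 rose and 2 fell. The largest rise was that of Hspa9 (ENSMUSG00000024359), mortalin, the HSP70 of the mitochondrial matrix that pulls imported proteins through the inner membrane. Its levels were 187, 192 and 168 CPM in young and 331, 305 and 269 CPM in aged libraries. Every aged library was thus above every young one, and the log2 fold change was 0.73 ± 0.09 (standard error, 3 libraries per age; edgeR adjusted p 0.000246). A single pseudogene matched 31.5% of its windows.

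Both of the divergent HSP70 genes of the Hspa12 pair fell. Hspa12a (ENSMUSG00000025092, chr19:58795750-58943654, minus strand, GRCm38) was at 448, 407 and 394 CPM in young and 242, 266 and 275 CPM in aged libraries, with no overlap between the ages. The log2 fold change was -0.67 ± 0.08 (edgeR adjusted p 0.000175). Hspa12b, known for its expression in endothelium, was at 81.6, 92.9 and 102 CPM in young and 66.8, 64.2 and 58.6 CPM in aged libraries. It too was lower in every aged library, by a log2 fold change of -0.55 ± 0.09 (edgeR adjusted p 0.00141). In the same libraries all 12 podocyte markers were lower, while 8 of 12 endothelial markers were lower and 2 higher.

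Hspa4l is an exchange factor of the HSP110 kind, counted with HSP70 by its symbol. It passed the threshold with a small rise of 0.26 ± 0.08 on the log2 scale (edgeR adjusted p 0.0331). The call was lost without young replicate 2 (giving 0.0894), young replicate 3 (0.152), aged replicate 2 (0.0585) or aged replicate 3 (0.111), and with RLE factors (0.0518), upper-quartile factors (0.0727), no filter on low counts (0.0637) or DESeq2 (0.0803). The other 9 HSP70 genes did not pass, with log2 fold changes from -1.04 (Hspa1l) to 0.26 (Hspa5).

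Hspa1a and Hspa1b, neighbouring copies of the heat-inducible HSP70 gene on chromosome 17, showed no difference beyond their spread. Hspa1a (chr17:34969190-34972156, minus strand) was at 18.8, 36.3 and 117 CPM in young and 26.2, 60.7 and 47.4 CPM in aged libraries. Hspa1b (chr17:34956436-34959238, minus strand) was at 10.5, 22.4 and 60.5 CPM in young and 14.2, 27.6 and 24.4 CPM in aged libraries. In both genes young replicate 3 was the highest of all 6 libraries and young replicate 1 the lowest, so the aged values lay inside the young range. The log2 fold changes were -0.35 ± 0.56 for Hspa1a (edgeR adjusted p 0.657) and -0.49 ± 0.52 for Hspa1b (adjusted p 0.494). Because reads can be split between such copies, their counts were also added, which gave -0.40 ± 0.54 (adjusted p 0.598). Without young replicate 3 the sign of the sum turned, to 0.58 (adjusted p 0.201).

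The promoters of this pair are shown because they are almost identical to each other, and because they carry the binding letters of HSF1. Sequences are from RefSeq (GRCm38.p6), 5′ to 3′ on the gene's strand, up to the base before the first transcribed base, which is position 0. Capitals mark a match to the 2-unit heat shock element, GAANNTTC or TTCNNGAA, each of which reads the same on both strands. The match GAAGATTC starts at position -104 in both, and 247 of the 250 letters are identical (98.8%).
Hspa1a, chr17:34972157-34972406, minus strand: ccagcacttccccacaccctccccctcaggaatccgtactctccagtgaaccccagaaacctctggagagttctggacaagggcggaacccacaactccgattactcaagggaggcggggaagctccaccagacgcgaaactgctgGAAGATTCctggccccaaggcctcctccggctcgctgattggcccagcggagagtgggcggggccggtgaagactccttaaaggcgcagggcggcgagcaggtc
Hspa1b, chr17:34959239-34959488, minus strand: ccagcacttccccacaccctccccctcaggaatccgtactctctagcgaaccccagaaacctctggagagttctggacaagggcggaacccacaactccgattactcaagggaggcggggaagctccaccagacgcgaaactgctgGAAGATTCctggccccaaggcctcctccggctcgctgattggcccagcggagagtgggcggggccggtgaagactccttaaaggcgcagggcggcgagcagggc

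RefSeq windows from 250 bases before to 50 after the start were found for 55 of the 70 genes. The 2-unit element was present for 14 of them, beside 4587 of all 27025 genes with a window, and 15.1% of the 32851 windows held it. Those 14 were Dnaja1, Dnaja4, Dnajb4, Dnajb6, Dnajc10, Dnajc27, Hspa1a, Hspa1b, Hspb1, Hspb6, Hspb8, Hspd1, Hspe1 and Hsph1. The longer 3-unit element, GAANNTTCNNGAA or TTCNNGAANNTTC, which contains the shorter one, was present for Dnajb6, Hspd1, Hspe1 and Hsph1, beside 179 of the 27025 genes and 0.603% of all windows. A match describes letters and does not show that a factor binds. Of the 14 genes, Hspd1 and Hsph1 rose, Dnajb4 and Hspb8 fell, and the other 10 did not pass the test. Of all genes tested, 23.7% rose and 16.3% fell, so these counts do not set the 14 apart.

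The wider heat-inducible group, written down after the counts were seen, comprised Hspa1a, Hspa1b, Hspa8, Hsph1, Hsp90aa1, Dnajb1, Dnaja1 and Hspb1. Of these 8, Hsph1 alone passed the test. Hspa8 was at 18.4, 22.0 and 18.3 CPM in young and 23.0, 25.9 and 21.1 CPM in aged libraries, with the ages overlapping, and its log2 fold change was 0.25 ± 0.12 (edgeR adjusted p 0.115). Hsph1, the HSP110 exchange factor that works with HSP70 in pulling apart aggregates, was at 40.2, 48.7 and 43.2 CPM in young and 70.3, 63.6 and 58.7 CPM in aged libraries. All aged libraries lay above all young ones, and the log2 fold change was 0.54 ± 0.10 (edgeR adjusted p 0.00167).

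The stretch before the more downstream of its 2 RefSeq starts is shown because it holds a 2-unit element, in capitals at position -54. The 3-unit match of Hsph1 starts at position 15, inside the transcribed part, and is not printed.
Hsph1, chr5:149636316-149636565, minus strand: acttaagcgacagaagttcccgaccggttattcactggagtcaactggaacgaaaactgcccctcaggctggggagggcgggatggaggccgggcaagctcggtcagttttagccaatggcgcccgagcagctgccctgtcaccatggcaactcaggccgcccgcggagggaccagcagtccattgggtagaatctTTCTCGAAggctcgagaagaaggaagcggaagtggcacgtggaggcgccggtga

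The 3 HSP90 genes summed to 1667 to 1758 CPM in young and 1945 to 2141 CPM in aged libraries, and 1 of them rose. Hsp90ab1 was at 977, 1061 and 984 CPM in young and 1273, 1230.3 and 1114 CPM in aged libraries. Its aged values were all above its young ones by a small margin, with a log2 fold change of 0.26 ± 0.08 (edgeR adjusted p 0.0314). The call did not stand without young replicate 1 (giving 0.105), young replicate 3 (0.118), aged replicate 1 (0.0767) or aged replicate 2 (0.0937), or with upper-quartile factors (0.0572).

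Hsp90b1, known as GRP94, was at 755, 689 and 671 CPM in young and 858, 774 and 822 CPM in aged libraries. The ages did not overlap, but the log2 fold change of 0.21 ± 0.08 missed the threshold (edgeR adjusted p 0.0576). It passed without young replicate 1 (0.0496), with limma-voom (0.0421) and with a score of immediate-early genes as a covariate (0.0491). Hsp90aa1, the inducible cytosolic HSP90, was at 9.56, 7.19 and 12.3 CPM in young and 10.3, 10.1 and 9.34 CPM in aged libraries. Its ages overlapped fully and its log2 fold change was 0.04 ± 0.19 (edgeR adjusted p 0.898).

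Hspa5, known as BiP, is the HSP70 of the ER and the partner of GRP94. Its levels were 691, 756 and 582 CPM in young and 892, 785 and 756 CPM in aged libraries. The lowest aged value exceeded the highest young one by less than 1 CPM, and the log2 fold change of 0.26 ± 0.11 did not pass (edgeR adjusted p 0.0852). It passed without young replicate 2 (0.0454), with no filter on low counts (0.0480) and with the immediate-early score (0.0165). Across the ER lumen, a group of 8 written down after the counts were seen (Hspa5, Hspa13, Hsp90b1, Dnajb9, Dnajb11, Dnajc1, Dnajc3 and Dnajc10), 0 genes passed with edgeR, 3 had an unadjusted p under 0.05, DESeq2 called 0 and limma-voom called 1. The model with the immediate-early score called 2, Hspa5 and Hsp90b1, and Dnajb9 passed with upper-quartile factors and without aged replicate 3. The log2 fold changes ran from -0.21 to 0.26.

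The promoters of Hspa5 and Hsp90b1 are shown for the ER stress element, the site through which the unfolded protein response is known to act. Capitals mark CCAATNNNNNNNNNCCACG or its reverse complement. It was present in the windows of Hspa5, Hsp90b1 and Dnajc3 among the 55 genes, beside 37 of the 27025 genes and 0.119% of all windows.
Hspa5, chr2:34771840-34772089, plus strand: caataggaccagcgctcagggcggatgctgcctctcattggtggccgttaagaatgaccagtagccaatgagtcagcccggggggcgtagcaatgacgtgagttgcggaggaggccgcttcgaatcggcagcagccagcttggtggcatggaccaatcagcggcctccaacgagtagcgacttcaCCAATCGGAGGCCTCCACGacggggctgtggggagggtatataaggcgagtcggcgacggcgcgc
Hsp90b1, chr10:86705445-86705694, minus strand: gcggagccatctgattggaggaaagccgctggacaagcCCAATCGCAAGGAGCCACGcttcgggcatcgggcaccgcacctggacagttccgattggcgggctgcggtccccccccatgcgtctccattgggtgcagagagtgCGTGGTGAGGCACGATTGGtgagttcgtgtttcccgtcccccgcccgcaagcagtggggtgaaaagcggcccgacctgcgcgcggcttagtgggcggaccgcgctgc

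Both genes carry the element (1 match before Hspa5, 2 before Hsp90b1), and both had a positive log2 fold change that missed the threshold. Dnajc3, a J-domain protein of the ER lumen that also inhibits the kinase PERK, had a log2 fold change of -0.12 ± 0.08 (edgeR adjusted p 0.243).

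The small heat shock proteins, which hold unfolding clients without using ATP, included the clearest falls. Of 6 tested, 2 fell and 0 rose. Hspb8 (ENSMUSG00000041548, chr5:116408491-116422864, minus strand), which joins the co-chaperone BAG3 in clearing damaged actin-associated proteins, was at 198, 171 and 166 CPM in young and 83.5, 91.2 and 96.3 CPM in aged libraries. Every aged library lay far below every young one. The log2 fold change was -0.98 ± 0.09 (edgeR adjusted p 3.94e-05), the smallest p of the family. Its partner Bag3 did not pass, at 0.08 ± 0.10 on the log2 scale (edgeR adjusted p 0.559).

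Hspb2, a small heat shock protein of muscle, was at 4.62, 4.89 and 6.81 CPM in young and 2.05, 2.51 and 2.15 CPM in aged libraries. Its aged values were again all lower, by a log2 fold change of -1.28 ± 0.21 (edgeR adjusted p 0.00121), the largest fall among the 70 genes. Hspb2 (chr9:50751078-50752354, minus strand) overlaps Cryab on the opposite strand, and 29.0% of its windows match Cryab. Cryab, alpha-B crystallin, is itself a small heat shock protein outside the naming rule, and it fell from 272 ± 14.2 to 164 ± 13 CPM (SD, n = 3; log2 fold change -0.73 ± 0.08, edgeR adjusted p 0.000108). Whether strand was used in counting is not stated, so reads of Cryab counted for Hspb2 cannot be told apart from its own. All 12 podocyte markers and 7 of 9 smooth muscle markers moved with these falls, with the levels given above.

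Hspb1, known as HSP27 and a regulator of actin, was at 0.729, 1.77 and 2.97 CPM in young and 1.05, 1.63 and 1.96 CPM in aged libraries. These overlapping values gave a log2 fold change of -0.23 ± 0.46 (edgeR adjusted p 0.728), whose sign turned without young replicate 3 (0.28, adjusted p 0.669). Hspb6, Hspb7 and Hspb11 did not pass either, with log2 fold changes of -0.09, -0.30 and 0.0031.

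**Figure D3:**
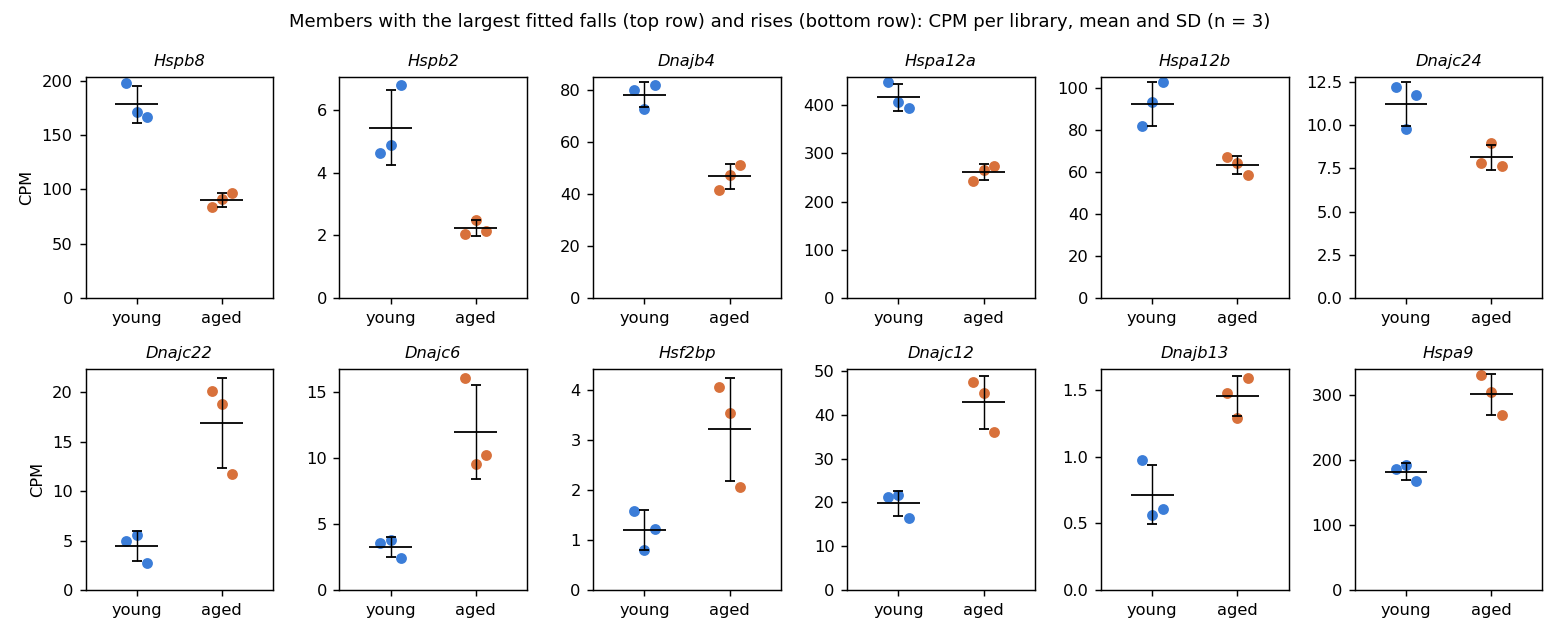
Level of the 6 genes with the largest called falls (top row) and the 6 with the largest called rises (bottom row) in each library; vertical axes are CPM from 0, dots are libraries, and lines and bars are the mean and SD of 3. Hspb8 was at 166 to 198 against 83.5 to 96.3 CPM, and Dnajb13 at no more than 1.59 CPM. The young and aged dots do not overlap in any of the 12. That follows from the choice of called genes, since all 24 called genes showed it. Of all genes tested, 52.6% did.

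The mitochondrial chaperonin has 2 genes that lie head to head on chromosome 1, Hspd1 for HSP60 and Hspe1 for its lid HSP10. Hspd1 was at 5.71, 6.77 and 7.90 CPM in young and 11.6, 8.77 and 10.1 CPM in aged libraries. All aged values were higher, with a log2 fold change of 0.58 ± 0.17 (edgeR adjusted p 0.0200), but the call was lost on leaving out young replicate 1 (giving 0.0688), aged replicate 1 (0.0790) or aged replicate 3 (0.0508). Hspe1 was at 1.90, 1.47 and 3.01 CPM in young and 2.61, 3.0 and 2.06 CPM in aged libraries. Its ages overlapped, and the log2 fold change was 0.28 ± 0.30 (edgeR adjusted p 0.502). Both have over 70% of their windows in other genes, mainly pseudogenes for Hspd1, and they overlap each other on opposite strands.

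The 215 bases between a pair of their RefSeq starts are shown because both windows hold 2 overlapping 3-unit heat shock elements there, in capitals, which start at positions -89 and -84 of Hspe1.
Hspe1, chr1:55087933-55088147, plus strand: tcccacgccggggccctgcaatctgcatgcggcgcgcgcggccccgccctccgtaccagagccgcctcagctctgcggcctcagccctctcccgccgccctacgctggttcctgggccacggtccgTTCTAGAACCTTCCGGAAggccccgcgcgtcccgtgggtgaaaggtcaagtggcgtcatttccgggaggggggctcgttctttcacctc

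With Hspa9 and the J-domain proteins Dnaja3, Dnajc11, Dnajc15, Dnajc19 and Dnajc30, the pair made a mitochondrial group of 8, written down after the counts were seen. In it 3 rose (Hspa9, Hspd1 and Dnajc15), 0 fell, and 5 did not pass. Of all genes tested, 40.1% passed and 23.7% rose, so this count does not set the group apart. The median log2 fold change was 0.23. Dnajc15, a J-domain protein of the inner membrane known to restrain respiration, rose by 0.58 ± 0.11 on the log2 scale (edgeR adjusted p 0.00247). Proximal tubule cells are known to be rich in mitochondria, and their 14 markers rose in the same libraries. The part of tubule RNA in the rises of this group was not tested.

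The J-domain proteins select clients for HSP70. Among the 40 genes, 9 rose and 5 fell, beside 23.7% and 16.3% of all genes tested, so these counts do not set them apart. Of 4 Dnaja genes, 1 rose. Dnaja2, a partner of constitutive HSP70, was at 135, 138 and 135 CPM in young and 167, 147 and 155 CPM in aged libraries. The ages did not overlap and the log2 fold change was 0.20 ± 0.07 (edgeR adjusted p 0.0415). That call is weak. It was lost without young replicate 1 (giving 0.104), young replicate 2 (0.0905), young replicate 3 (0.147), aged replicate 1 (0.131) or aged replicate 3 (0.0798), and with RLE factors (0.0654), upper-quartile factors (0.0912), no filter on low counts (0.0877) or DESeq2 (0.0980).

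Dnaja1, an inducible member that aids protein import into mitochondria, was at 57.4, 45.8 and 64.3 CPM in young and 48.2, 46.5 and 45.5 CPM in aged libraries. Young replicate 2 fell among the aged values, and the log2 fold change was -0.26 ± 0.11 (edgeR adjusted p 0.106). Without that library it was -0.39 and passed (adjusted p 0.00522).

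Of 11 Dnajb genes, 2 fell and 2 rose. Dnajb4, a cytosolic HSP70 partner, was at 80.1, 73.0 and 81.9 CPM in young and 41.8, 47.6 and 51.3 CPM in aged libraries. The groups stood well apart, with a log2 fold change of -0.74 ± 0.09 (edgeR adjusted p 0.000188). Dnajb1, the main inducible HSP40, was at 61.0, 74.6 and 101 CPM in young and 61.5, 72.1 and 72.7 CPM in aged libraries. Young replicate 3 was again the highest and the ages overlapped, with a log2 fold change of -0.20 ± 0.16 (edgeR adjusted p 0.367). It passed at -0.24 with the immediate-early score in the model (0.0448).

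Dnajb13, a protein of sperm flagella and motile cilia, rose from 0.973, 0.564 and 0.611 CPM in young to 1.48, 1.29 and 1.59 CPM in aged libraries. These are very low levels, and the log2 fold change was 1.01 ± 0.32 (edgeR adjusted p 0.0296). The call was lost without young replicate 2 (giving 0.0954), young replicate 3 (0.0941), aged replicate 1 (0.0783), aged replicate 2 (0.0545) or aged replicate 3 (0.0895), and with DESeq2 (0.0549). It overlaps Ucp2 on the opposite strand.

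Dnajb12, an ER membrane protein that takes part in the disposal of misfolded membrane proteins, rose by 0.27 ± 0.07 on the log2 scale (edgeR adjusted p 0.0127). That call was lost without young replicate 1 (0.0549) or young replicate 3 (0.0530). Dnajb2, known for steering clients of HSP70 to the proteasome, fell, with a log2 fold change of -0.20 ± 0.07 (edgeR adjusted p 0.0377), which was lost without young replicate 2 (0.111), aged replicate 1 (0.0671), aged replicate 2 (0.0846) or aged replicate 3 (0.109), with no filter on low counts (0.0680) and with the immediate-early score (0.0582). The remaining 7 Dnajb genes had log2 fold changes from -0.38 to 0.27.

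The Dnajc subfamily, whose members often carry a J domain in an otherwise unrelated protein, held the largest rises. Of 25 genes, 6 rose and 3 fell. Dnajc22, related to a fly protein of endocytosis, was at 4.98, 5.61 and 2.71 CPM in young and 20.2, 18.8 and 11.7 CPM in aged libraries. Its log2 fold change of 1.92 ± 0.28 was the highest of the 70 genes (edgeR adjusted p 0.000506). Dnajc6, or auxilin, which recruits HSP70 to strip clathrin from vesicles, was at 3.57, 3.76 and 2.40 CPM in young and 16.1, 9.57 and 10.2 CPM in aged libraries. Again the ages did not overlap, and the log2 fold change was 1.87 ± 0.25 (edgeR adjusted p 0.000301). Gak, the widely expressed auxilin, lies outside the naming rule and rose by 0.19 ± 0.07 (edgeR adjusted p 0.0436).

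Dnajc12, a co-chaperone of the enzymes that hydroxylate aromatic amino acids, was at 21.3, 21.6 and 16.4 CPM in young and 47.5, 45.1 and 36.1 CPM in aged libraries. Every aged library was above every young one, and the log2 fold change was 1.12 ± 0.14 (edgeR adjusted p 0.000208). In Dnajc12, Dnajc22 and Dnajc6 the lowest young value was that of replicate 3. That library also had the lowest proximal tubule score of all libraries. Among aged libraries the score was lowest in replicate 3 (8.34) and highest in replicate 2 (8.76). Dnajc12 and Dnajc22 were lowest in aged replicate 3, but Dnajc6 was lowest in aged replicate 2. All 14 proximal tubule and 10 distal nephron markers rose with these genes. The part of tubule RNA in the rises of these genes was not tested.

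Dnajc13, or RME-8, which sorts cargo on endosomes, had the smallest p-value of the Dnajc genes. It was at 87.0, 89.5 and 81.1 CPM in young and 141, 137 and 133 CPM in aged libraries. The spread within an age was small, and the log2 fold change was 0.67 ± 0.07 (edgeR adjusted p 6.41e-05). Dnajc28 also rose, by 0.66 ± 0.13 (edgeR adjusted p 0.00317).

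Falls in this subfamily were smaller. Dnajc24, which acts in making the diphthamide residue of elongation factor 2, was at 12.2, 9.78 and 11.7 CPM in young and 7.80, 8.96 and 7.66 CPM in aged libraries. Its ages did not overlap and its log2 fold change was -0.46 ± 0.14 (edgeR adjusted p 0.0237), a call lost without young replicate 1 (0.0731), aged replicate 1 (0.0746) or aged replicate 3 (0.0743). Dnajc4 fell too, with a log2 fold change of -0.41 ± 0.12 (edgeR adjusted p 0.0196), lost without aged replicate 1 (0.0656). Dnajc14, an ER membrane protein, had a log2 fold change of -0.21 ± 0.06 (edgeR adjusted p 0.0214), lost without aged replicate 3 (0.0667). Dnajc14 overlaps Sarnp on the same strand and Ormdl2 and Tmem198b on the opposite one, and 25.8% of its windows occur in other genes. The other 16 Dnajc genes stayed between -0.21 and 0.16 on the log2 scale.

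The transcription factors of the heat shock response themselves did not pass. Hsf1, the main one, was at 40.0, 42.2 and 43.1 CPM in young and 39.6, 42.3 and 38.4 CPM in aged libraries. These values overlapped, and the log2 fold change was -0.06 ± 0.07 (edgeR adjusted p 0.579). The log2 fold changes of Hsf2 and Hsf4 were -0.05 and 0.49, of which Hsf4 passed without young replicate 2. Hsf2bp matched the naming rule but is no heat shock factor: it binds HSF2 and is known for its part in meiotic recombination. It rose from 1.58, 0.790 and 1.22 CPM in young to 4.05, 3.53 and 2.06 CPM in aged libraries. The ages did not overlap at these low levels, and the log2 fold change was 1.43 ± 0.34 (edgeR adjusted p 0.00816).

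Hspa1a differed 6.25-fold between the highest and lowest young library and 2.32-fold between the aged ones, more than between the means of the ages. Young replicate 3 exceeded both other young libraries by at least 1.5-fold in 6 genes, picked out after their values were seen. Its ratio to the next young library was 3.23 for Hspa1a, 2.70 for Hspa1b, 2.14 for Hspb7, 1.68 for Hspb1, 1.58 for Hspe1 and 1.53 for Hspa1l. The same held for 1 gene in young replicate 1 and for 0 genes in young replicate 2. Fos, Jun and Egr1, immediate-early genes that cells switch on rapidly after many kinds of stimulus, were also highest in young replicate 3. Fos was at 1580, 1588 and 2504 CPM in young and 1234, 1452 and 1887 CPM in aged libraries. Dnajb1, Hsp90aa1 and Dnaja1 were highest of all libraries in young replicate 3 too, by smaller ratios to the next young library (1.36, 1.29 and 1.12). Hsph1, Hspa8 and Hsp90ab1 were not highest in young replicate 3. Among aged libraries, Fos, Jun and Egr1 were highest in replicate 3, as were Hspb1 and Hspb7. Dnajb1 was highest in aged replicate 3 as well. Hspa1a, Hspa1b, Hspe1 and Hspa1l were instead highest in aged replicate 2, and Dnaja1 and Hsp90aa1 in aged replicate 1. Whether the spread of the chaperone genes is linked to that of Fos, Jun and Egr1 was not tested.

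**Figure D4:**
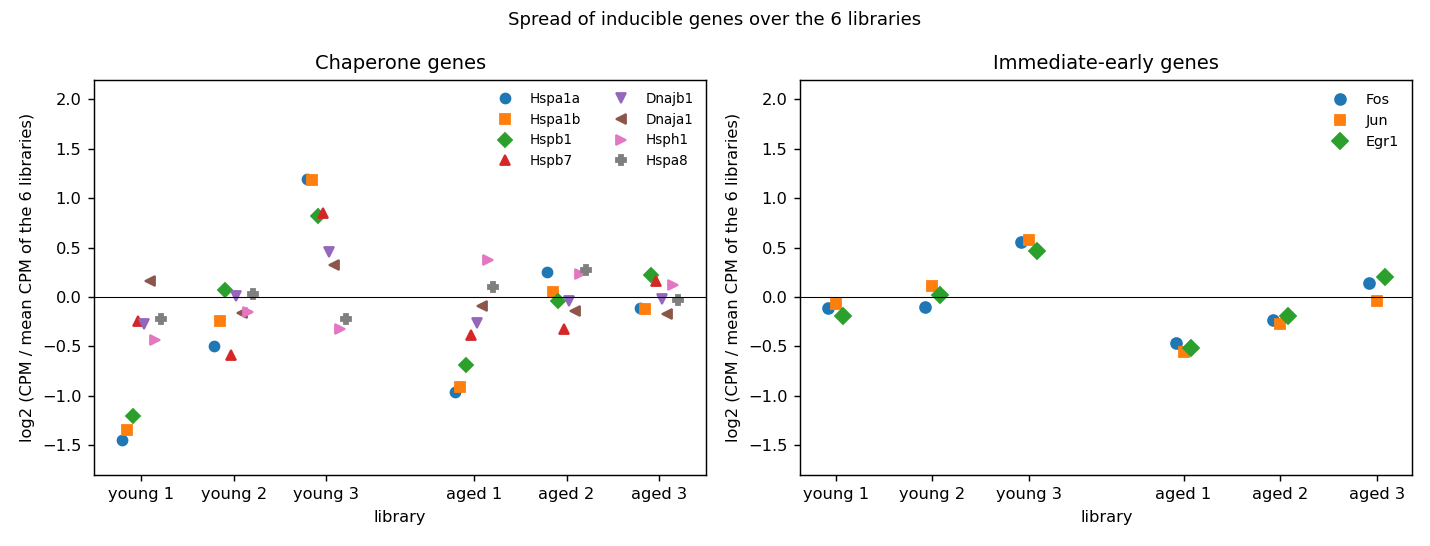
Level of 8 chaperone genes (left) and of Fos, Jun and Egr1 (right) in each of the 6 libraries, as log2 of the CPM over the gene's mean CPM of all libraries; each symbol is 1 gene in 1 library. In young replicate 3, Hspa1a, Hspa1b, Hspb1, Hspb7, Dnajb1 and Dnaja1 stand at their highest together with the 3 immediate-early genes, while Hsph1 and Hspa8 do not. Among aged libraries, the 3 immediate-early genes, Hspb1, Hspb7 and Dnajb1 are highest in replicate 3. Hspa1a, Hspa1b and Hspa8 are highest in aged replicate 2, and Dnaja1 and Hsph1 in aged replicate 1.

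The partners of the chaperones also changed in both directions. The counts in the lists below stand beside 23.7% of all genes tested that rose and 16.3% that fell. Of 14 co-chaperones and exchange factors of HSP70, 3 rose and 1 fell, with a median log2 fold change of 0.08. Bag2, which slows the ubiquitin ligase CHIP, had the smallest p-value and rose from 3.89 ± 0.567 to 6.50 ± 0.515 CPM (SD, n = 3; log2 fold change 0.74 ± 0.17, edgeR adjusted p 0.00658). The others called were St13 and Grpel1, the exchange factor of mitochondrial HSP70, which rose, and Bag5, which fell. Without young replicate 1, young replicate 2, aged replicate 1 or aged replicate 2 the list had 2 calls.

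Of 14 HSP90 co-chaperones, 3 rose and 2 fell, with a median of -0.07. Fkbp5, an immunophilin of the HSP90 complex with steroid receptors and a known target of glucocorticoids, rose from 30.9 ± 6.49 to 131 ± 20.6 CPM (SD, n = 3). Its log2 fold change of 2.08 ± 0.16 (edgeR adjusted p 1.91e-05) was larger than that of any of the 70 chaperone genes. Stip1, which passes clients from HSP70 to HSP90, and Fkbp4 rose as well, while Cdc37l1 and Sugt1 fell.

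Chaperones of the same families that the naming rule leaves out gave 2 rises and 2 falls among 8 tested. Trap1, the HSP90 of mitochondria, rose from 86.9 ± 3.52 to 121 ± 7.79 CPM (SD, n = 3; log2 fold change 0.48 ± 0.07, edgeR adjusted p 0.000674). Hyou1, an ER-resident relative of HSP110, fell from 307 ± 13.3 to 255 ± 14.0 CPM (SD, n = 3; log2 fold change -0.27 ± 0.07, edgeR adjusted p 0.0156), a call lost without aged replicate 2 (0.0504) or aged replicate 3 (0.0579). With Cryab and Gak, these 4 were the calls of the list, and 2 were left without aged replicate 3.

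The cytosolic chaperonin TRiC and its helper prefoldin changed little: of 14 genes, 0 rose and 2 fell, both of them prefoldin subunits (Pfdn5 and Vbp1). Pfdn5 had the smaller p-value and fell by a log2 fold change of -0.32 ± 0.08 (edgeR adjusted p 0.00828). Only 1 was called without young replicate 1 or aged replicate 2. Of 22 other genes of the unfolded protein response, 4 rose and 3 fell, with a median of 0.0025. Herpud1, an ER membrane protein of protein disposal, had the smallest p-value and rose from 133 ± 17.3 to 207 ± 16.4 CPM (SD, n = 3; log2 fold change 0.63 ± 0.10, edgeR adjusted p 0.000950). Sdf2l1, Manf and Derl3 rose with it, and Edem1, Atf4 and Pdia4 fell.

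In mitochondrial protein quality control, 4 of 9 tested genes rose and 0 fell, with Spg7 listed at 0 and not tested. Lonp1, the main protease of the mitochondrial matrix, rose from 69.4 ± 5.44 to 91.1 ± 6.95 CPM (SD, n = 3; log2 fold change 0.39 ± 0.08, edgeR adjusted p 0.00498). Afg3l2, Clpx and Pmpcb were the other 3, and 2 calls were left without young replicate 3, aged replicate 1 or aged replicate 2. Among 20 immediate-early genes, 2 rose and 3 fell. The smallest p-value was that of Myc, which rose from 2.64 ± 0.121 to 14.0 ± 1.55 CPM (SD, n = 3; log2 fold change 2.40 ± 0.15, edgeR adjusted p 8.06e-06). Egr3 rose and Fosb, Jun and Jund fell, and 3 of these 5 calls were left without aged replicate 1 or aged replicate 2.

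Of the 24 chaperone genes called, 14 kept the call with each library left out in turn and in every alternative other than the proximal tubule score. These were Dnajc22, Dnajc6, Hsf2bp, Dnajc12, Hspa9, Dnajc13, Dnajc28, Dnajc15 and Hsph1 among the rises and Hspb2, Hspb8, Dnajb4, Hspa12a and Hspa12b among the falls. The other 10 lost it without at least 1 library, as given for each above.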

How the data were processed

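Per the file headers, the authors deposited a table per library with the count of reads for each Ensembl gene, a gene width and an RPKM value. The counts are whole numbers and were used as deposited. The deposited width, which is the whole gene span in 85.6% of annotated genes, and the RPKM values were not used. The submitters' processing notes name Partek and GRCm38. The aligner, the treatment of reads that match several places and the use of strand are not given in the sources used here. Symbols, coordinates and exon lengths came from GENCODE M21 (GRCm38), which held 52489 of the 52636 genes, and the 147 others took 0.00844% of counts. Rows of other biotypes that match the naming rule (13, mainly pseudogenes) were left out.

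Aged libraries were compared with young ones in R 4.3.3 with edgeR 4.0.16 (filterByExpr at defaults, TMM factors, glmQLFit and glmQLFTest, no covariate) on the whole table of 15721 tested genes. Benjamini-Hochberg adjustment ran over all of them, with a threshold of 0.05. Standard errors were derived from the log2 fold change and the F statistic. The procedure was tested on simulated data. Level per kilobase is CPM divided by the union of exons. Windows were aligned with bwa 0.7.19, and motifs were searched in RefSeq promoter windows by letter. At 21162919 to 26791412 counts per library, genes under about 1 CPM rest on few counts, and counts without molecular identifiers cover counting error only.

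Groups are those of the labels. Libraries of equal replicate number showed no clear pairing: their deviations from the group means correlated at 0.01, 0.05 and 0.11. Between libraries of other numbers the correlations ran from -0.14 to 0.10. With 3 libraries per age, this check cannot settle whether replicate number marks a batch. Within-group pairs differed beyond counting noise (mean chi-square per gene 12.4 to 20.6), so no library is a copy. Alternatives were RLE and upper-quartile factors, library totals, no filter, a minimum of 10 counts in each library, the replicate block, DESeq2 1.42.0, limma-voom (limma 3.58.1), proximal tubule and immediate-early scores (mean log2 CPM of the list) as covariates, each library left out, and the longest transcript as length. The members, marker lists and pathway lists were chosen with earlier results of these data known. Values per library are given for 16 core genes (the main inducible and constitutive members and Hsf1), for the 6 largest called rises and falls, and for the called gene with the smallest p in each family. From each pathway list the called gene with the smallest p is given, with Cryab, Hyou1 and Trap1. Other genes named were chosen after their values were seen.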

Additional observations from a re-analysis of the deposited data

How the results depend on the processing

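Under every alternative run other than the proximal tubule score, the numbers of chaperone genes that rose and fell stayed within 1.5 times of 15 and 9, and with 1 library left out they were 11 to 14 and 6 to 10. Over all genes, rises were 3153 to 3566 and falls 1941 to 2430 with 1 library left out. The count of calls was 0 for Dnaja with RLE factors, upper-quartile factors, no filter on low counts and DESeq2, 0 for HSP90 with upper-quartile factors and 2 for HSP90 with limma-voom and with the immediate-early score. The immediate-early list had 3 calls with library totals and 10 with its own score. With the replicate block, Dnaja had 0 calls, HSP90 had 2 and the immediate-early list had 9. The block kept 22 of the 24 chaperone calls, lost Dnaja2 and Hspa4l and gained Hsp90b1 and Hspa5, and 1 of 3 young and 2 of 3 aged libraries correlated best with their own number. With 1 library left out, calls ranged from 0 to 1 for Dnaja, HSP90 and the chaperonins, 2 to 3 for Dnajb and 1 to 2 for heat shock factors. In the lists they ranged from 2 to 3 for HSP70 co-chaperones and for chaperones outside the naming rule, 1 to 2 for TRiC and prefoldin, 3 to 5 for immediate-early genes and 2 to 4 for mitochondrial quality control. With the proximal tubule score, 31 genes were higher and 8 lower, and calls were 0 for the chaperones in either direction, for each of their families and for every pathway list other than the immediate-early genes, which had 2. The members' median log2 fold change became 0.062 and that of Hspa1a plus Hspa1b 3.56. In that fit the sign turned for Hspa1a (3.79), Hspa1b (3.19), Hspa5 (-0.61), Hspa8 (-0.45), Hsp90ab1 (-0.12), Hspb1 (2.30), Hspb7 (3.20), Dnaja1 (0.53), Dnajb1 (0.93), Dnajc22 (-0.99), Dnajc12 (-0.13) and Lonp1 (-0.069). The sign also turned for Hsp90aa1 with upper-quartile factors (-0.0064) and Hspa1a with limma-voom (0.0021). Leaving out 1 library gave log2 fold changes of -0.15 to 0.22 for Hsp90aa1, -0.77 to 0.68 for Hspa1a, -0.90 to 0.40 for Hspa1b, -0.82 to 0.58 for their sum, -0.61 to 0.28 for Hspb1 and -0.57 to 0.22 for Hspb7. Per kilobase of the longest transcript, young levels were 184 CPM for Hspa5, 399.7 for Hsp90ab1 and 219 for Hsp90b1, in the same order. The cause of these changes was not tested. Depth limits what can be said of genes near or under 1 CPM, such as Hspa1l and Dnajb13.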
